A study of Mus musculus with 14 samples.

Results

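Sterol and fatty acid synthesis was followed through 34 genes, taken by their place in the pathway. These were 8 enzymes from acetyl-CoA to the isoprenoids, 11 enzymes from farnesyl diphosphate to cholesterol and 6 genes that control or carry sterols. The others were 3 enzymes of fatty acid synthesis and 6 enzymes that lengthen or desaturate fatty acids. A gene entered the tests when it reached 3.32 in 3 or more of the 14 libraries, the log2 of an unlogged value of 10. This kept 32 of the 34 genes, among 11886 of 24556 genes in the table. Lss, lanosterol synthase, had group means between 2.27 and 2.48 and Fads2, the Δ6 desaturase, had group means between 1.47 and 1.54, so neither reached the minimum in any library. Of the kept genes, Idi1 reached it in 8 libraries, Nsdhl in 11 and Scd1 in 12, and the other members reached it in all 14.

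The RNA came from F4/80-positive cells, taken with magnetic beads and passed over a fresh column to raise purity, from tumours of 4T1 cells in Balb/c mice. 4T1 is an established mouse mammary carcinoma line. Before injection into the fat pad the tumour cells had been cultured for 5 days with 5 µM GSK269962A, a kinase inhibitor, or with the vehicle DMSO. The exposure to the compound that the labels describe was that of the tumour cells before injection, so below GSK and DMSO name what the tumour cells had met and not a treatment of the macrophages. There were 3 GSK and 3 DMSO libraries from day 8 after injection, and 4 GSK and 4 DMSO libraries from day 14. The labels do not say whether each library came from a separate mouse, so p-values measure the spread between these samples, which may be technical.

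Cholesterol is made from acetyl-CoA by way of mevalonate, the isoprenoid diphosphates and squalene, and fatty acids are made from the same acetyl-CoA by way of malonyl-CoA. Both branches are under the SREBP transcription factors, which are carried by SCAP from the endoplasmic reticulum to the Golgi for cleavage when sterols are low and are held back by the INSIG proteins when sterols are high. Macrophages take up much of their cholesterol from lipoproteins and engulfed cells, and they export it through liver X receptor target genes such as Abca1.

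The members that passed the test below, and Hmgcs1 for comparison, are shown by the 250 bases before their transcription start where a promoter entry was at hand (RefSeq, GRCm38.p6). RefSeq's starts differ from those of the GENCODE gene positions given further on, so that the windows of Srebf2, Cyp51 and Msmo1 lie partly, and that of Msmo1 mostly, inside the gene as GENCODE draws it. Such entries matched 27 of the 34 members, 25 of them among the kept genes. Sequences run 5′ to 3′ on the strand of the gene, with capitals at every match on either strand to the sterol-response letters TCACNCCAC, to the CCAAT box bound by NF-Y (CCAAT, or ATTGG on the other strand) and to the GC box bound by Sp1 (GGGCGG, or CCGCCC).
Srebf2 (chr15:82147019-82147268, plus strand): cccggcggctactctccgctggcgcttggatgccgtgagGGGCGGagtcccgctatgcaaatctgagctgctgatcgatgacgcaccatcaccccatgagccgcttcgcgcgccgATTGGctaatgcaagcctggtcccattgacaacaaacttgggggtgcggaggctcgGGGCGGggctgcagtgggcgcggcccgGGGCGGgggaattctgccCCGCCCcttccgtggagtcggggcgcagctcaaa
Ggps1 (chr13:14063489-14063738, minus strand): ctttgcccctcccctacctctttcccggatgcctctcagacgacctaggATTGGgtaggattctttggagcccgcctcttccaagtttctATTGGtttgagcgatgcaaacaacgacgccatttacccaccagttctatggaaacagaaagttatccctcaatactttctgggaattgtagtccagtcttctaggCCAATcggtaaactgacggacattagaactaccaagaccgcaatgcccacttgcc
Cyp51 (chr5:4104698-4104947, minus strand): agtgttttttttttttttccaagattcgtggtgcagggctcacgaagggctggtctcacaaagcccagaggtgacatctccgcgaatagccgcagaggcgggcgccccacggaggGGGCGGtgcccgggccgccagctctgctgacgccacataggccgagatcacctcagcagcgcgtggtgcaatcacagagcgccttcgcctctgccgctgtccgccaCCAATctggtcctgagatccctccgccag
Msmo1 (chr8:64733579-64733828, minus strand): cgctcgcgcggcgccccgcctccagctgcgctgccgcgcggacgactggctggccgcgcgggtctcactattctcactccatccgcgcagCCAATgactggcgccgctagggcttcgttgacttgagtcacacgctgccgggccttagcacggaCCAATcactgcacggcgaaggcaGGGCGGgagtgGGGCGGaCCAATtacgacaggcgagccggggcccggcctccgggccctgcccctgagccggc
Hmgcs1 (chr13:119690101-119690350, plus strand): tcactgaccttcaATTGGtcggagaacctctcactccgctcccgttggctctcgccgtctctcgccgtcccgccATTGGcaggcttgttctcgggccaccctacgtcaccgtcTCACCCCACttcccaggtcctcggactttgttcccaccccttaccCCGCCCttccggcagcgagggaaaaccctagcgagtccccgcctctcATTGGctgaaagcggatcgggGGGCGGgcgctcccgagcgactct
Elovl5 (chr9:77917115-77917364, plus strand): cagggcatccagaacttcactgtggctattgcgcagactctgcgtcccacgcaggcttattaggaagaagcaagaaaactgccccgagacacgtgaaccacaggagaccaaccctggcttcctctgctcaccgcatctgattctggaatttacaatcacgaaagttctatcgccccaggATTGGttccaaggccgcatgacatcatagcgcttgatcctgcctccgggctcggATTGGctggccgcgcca
Of the 25 kept members with an entry, 20 (80.0%) held a CCAAT box and 19 (76.0%) a GC box, against 37.5% and 35.4% of the 27025 genes with an entry. The 27025 genes were not limited to those that reached the minimum level, as the 25 members were, so the sets compared are unlike. TCACNCCAC was matched in 1 of the 25, Hmgcs1, at 137 bases before the start, and in 1.225% of all genes. Scd2 passed a test and had no entry. No matches overlap within the 6 windows shown. A match is a description of these letters and says nothing of binding.

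Gene positions below are those of GENCODE M21 on GRCm38. Values are on the authors' log2 scale, whose transformation is not stated in the sources used here. No counts were used and the depth is unknown, for which reason intervals for counting error are not given. Members are compared across libraries and not with each other, since the values are not per length. In bulk RNA from a cell fraction, fewer cells of a type and less RNA per cell cannot be told apart. Pearson correlations were 0.967 to 0.993 within groups and 0.933 to 0.990 between groups. The labelled cell type was checked by 8 macrophage markers, all of them kept, with list means of 10.47 to 11.46 across the 14 libraries. 4T1 epithelial markers were also present, with 9 of 13 kept and list means of 5.88 to 7.33 in GSK day 8 libraries and 5.84 to 6.61 in DMSO day 8 libraries. On day 14 they were 4.96 to 5.12 in GSK and 5.19 to 5.65 in DMSO libraries. Of 8 fat pad markers only Lpl and Fabp4 were kept, and Adipoq and Pck1 had group means between -2.07 and -2.05. A pair of overlapping ribosomal RNA genes split the libraries in a way the labels do not give. AY036118 was the higher in 9 libraries, which are all 4 from GSK day 14, 2 from DMSO day 14, 2 from GSK day 8 and 1 from DMSO day 8, and Gm42418 was the higher in the other 5. As a term in the model this split was past the threshold for 41 genes and for 0 of the 32 members in limma, with 4 members at an unadjusted p under 0.05 against 14.3% of all genes. These were Elovl5, Tm7sf2, Fads1 and Scd1. Elovl5 had the smallest unadjusted p of the members in limma (0.00372). It was higher by 0.45 where AY036118 was the higher. The unlogged totals of the libraries, which the deposited values do not make equal, were 6545660 to 7065350 in GSK and 7385890 to 8151990 in DMSO libraries of day 14. No GSK day 14 library had Gm42418 higher, so within that kind of library the day 14 comparison gives no value.

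**Figure D1:**
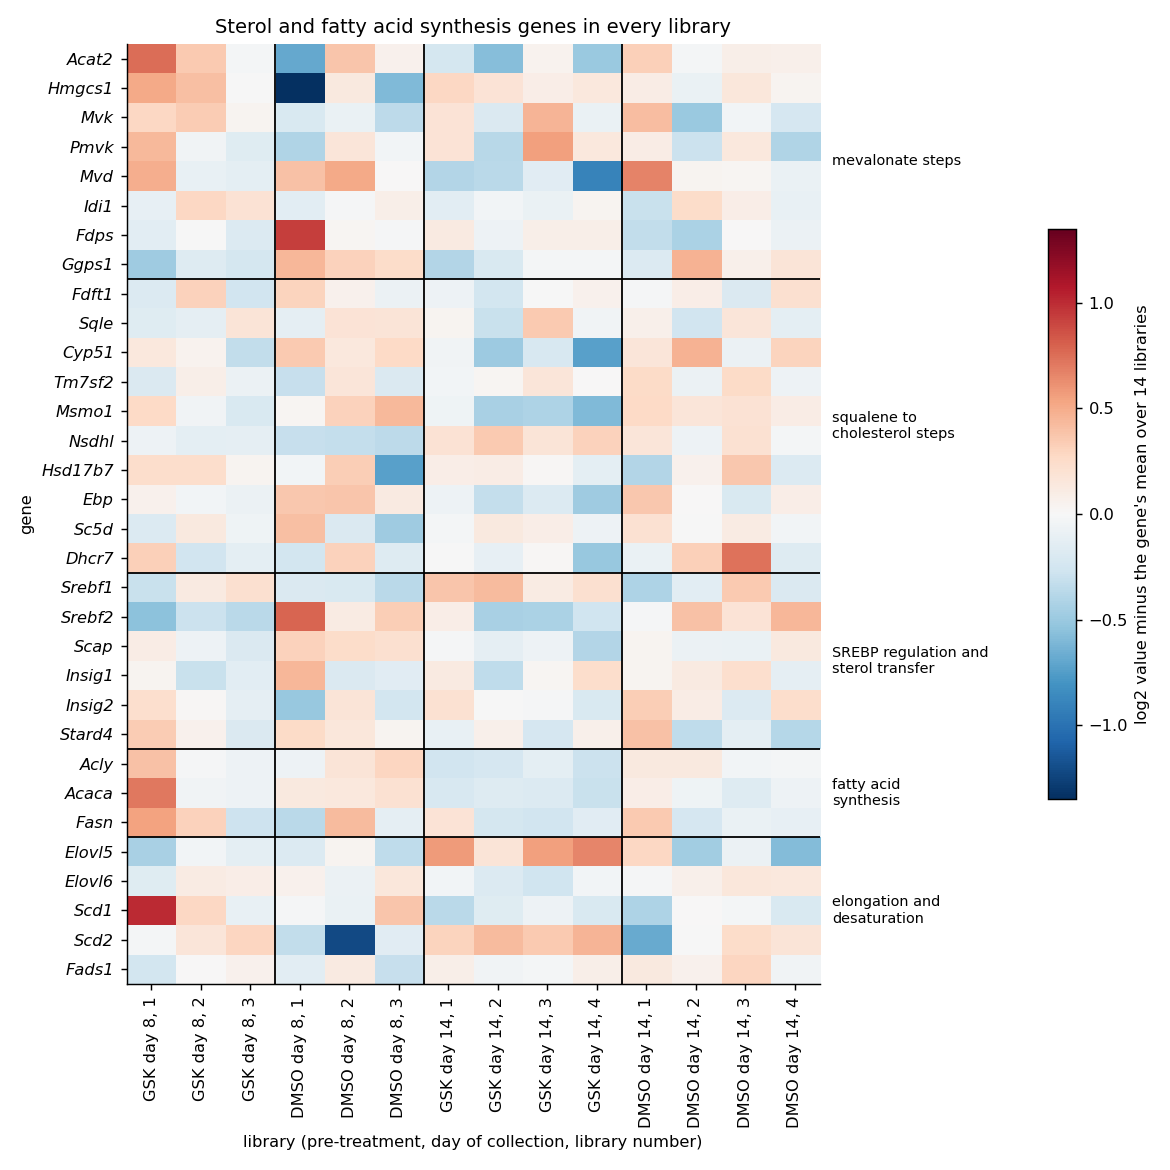
Log2 value of each of the 32 kept members in each library (columns, grouped by pre-treatment and day) minus that member's mean over all 14 libraries, with rows in the order of the pathway and colour from low (blue) to high (red). Srebf2 and Ggps1 are below their means in all 3 GSK day 8 libraries and above them in all 3 DMSO day 8 libraries, and the libraries numbered 1 of both day 8 groups hold many of the strongest colours.

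Across these libraries single members moved by modest amounts. The range between the lowest and the highest library was widest for Hmgcs1, from 6.30 in DMSO day 8 library 1 to 8.16 in GSK day 8 library 1, and narrowest for Elovl6, from 4.54 to 4.96. GSK day 14 library 4 was the lowest of the 14 libraries for 8 members, DMSO day 8 library 1 was the lowest for 6 and the highest for 5, and GSK day 8 library 1 was the highest for 6. Without both day 8 libraries numbered 1, the mean over days described next called 8 members in place of 5. The share of all genes called in that setting is not given here, so this rise is not a result about the members.

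Averaged over both days, GSK fractions had lower Srebf2, the transcription factor of the cholesterol branch, lower Ggps1, which makes geranylgeranyl diphosphate, and lower Cyp51 and Msmo1, enzymes of separate steps that strip methyl groups from lanosterol and its products. They had higher Scd2, a stearoyl-CoA desaturase. These 5 of 32 members (15.6%) stand beside 14.5% of all 11886 genes, so the share of members called was close to the background. In single directions, 1 member was higher (6.73% of all genes were) and 4 were lower (7.77%). The median log2 change of the members was -0.01 and that of all genes 0.03. On day 8 alone 0 of 32 members passed (0.194% of all genes, limma), with 5 members at an unadjusted p under 0.05, Hmgcs1, Ggps1, Srebf2, Scap and Scd2, against 16.3% of all genes. On day 14 alone 3 passed (9.38%, against 10.8% of all genes): Elovl5, an elongase of polyunsaturated fatty acids, was higher (higher calls, 5.10% of all genes), and Cyp51 and Msmo1 were lower (lower calls, 5.73%). The test of whether the GSK difference itself differed between day 14 and day 8 called 0 members (0.00841% of all genes), with 4 members at an unadjusted p under 0.05 against 8.30% of all genes. None of the differences described below was thus shown to depend on the day.

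**Figure D2:**
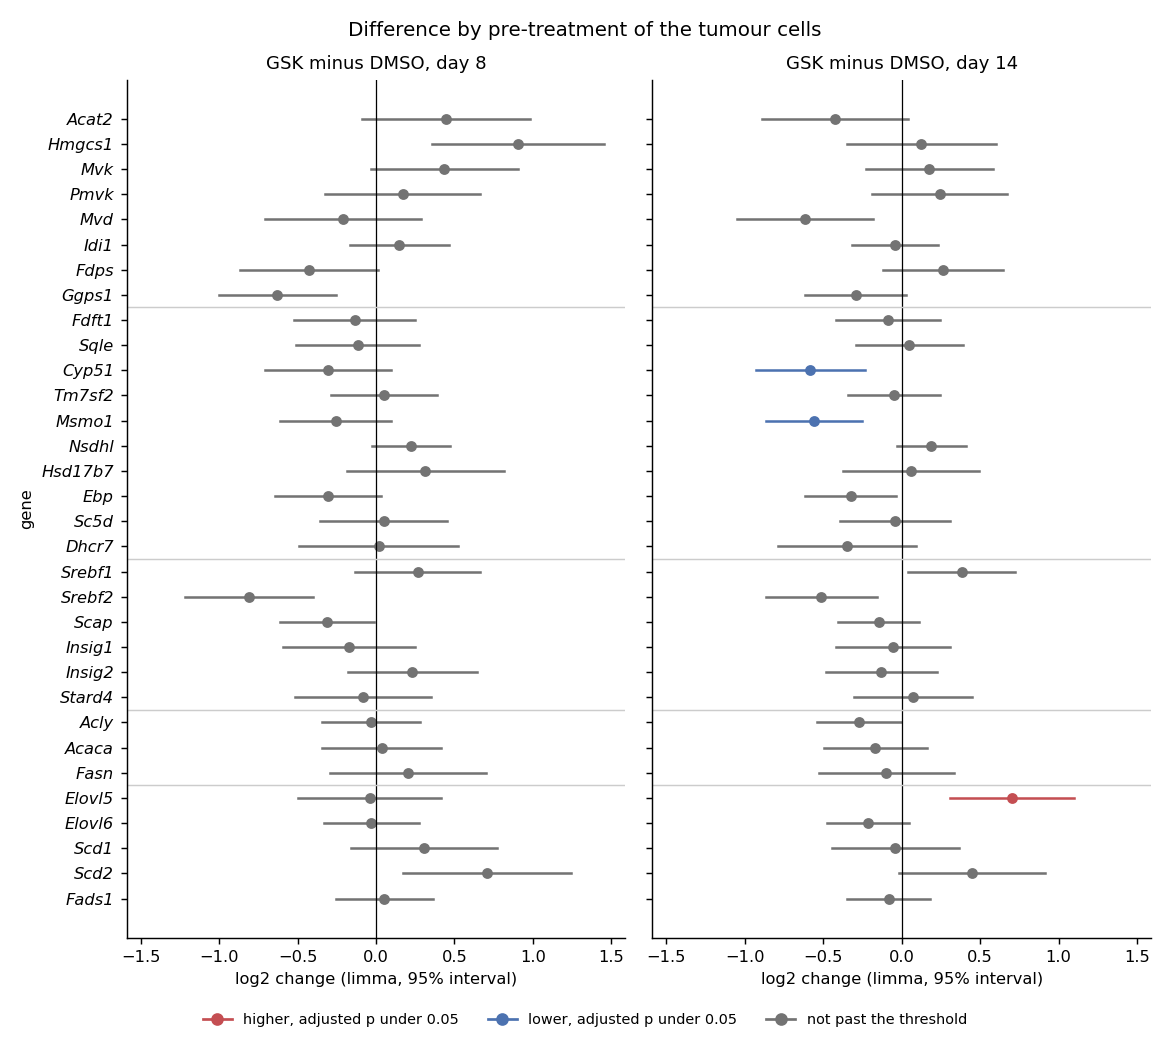
Log2 change of each kept member, GSK minus DMSO, on day 8 (left) and day 14 (right), with the 95% interval of the limma fit as a bar, and colour where the adjusted p was under 0.05. Only Elovl5 (higher) and Cyp51 and Msmo1 (lower) are coloured, all on day 14, and the intervals of most members include 0.

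Among the genes that control the pathway, Srebf2 (ENSMUSG00000022463, chr15:82147181-82205379) encodes SREBP-2, which drives the enzymes of cholesterol synthesis and lipoprotein uptake. Its log2 values were 7.64, 7.90 and 7.83 in the GSK day 8 libraries, against 8.97, 8.30 and 8.53 in the DMSO day 8 libraries. Day 14 gave 8.28, 7.76, 7.77 and 7.92 with GSK and 8.17, 8.59, 8.37 and 8.65 with DMSO. Every GSK library of day 8 lay below every DMSO library, and on day 14 the groups overlapped because GSK library 1 lay above DMSO library 1. The mean difference over both days was -0.66 on the log2 scale (SE 0.13, 1.58-fold lower, adjusted p = 0.00482), the smallest adjusted p of any member. Taken by day it was -0.81 (SE 0.19, adjusted p = 0.0696) on day 8 and -0.51 (SE 0.17, adjusted p = 0.0584) on day 14, neither past the threshold. In the 9 libraries with AY036118 higher the mean difference was -0.39 (adjusted p = 0.0889), and in all of the other 26 alternatives it passed.

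Srebf1, whose products drive the fatty acid branch, had values of 3.86, 4.27 and 4.37 in GSK and 3.96, 3.96 and 3.79 in DMSO libraries of day 8, and of 4.53, 4.58, 4.27 and 4.37 in GSK and 3.74, 4.02, 4.51 and 3.96 in DMSO libraries of day 14. The groups overlapped on both days. The mean difference was 0.32 (SE 0.12, adjusted p = 0.0882), opposite in sign to that of Srebf2 and not past the threshold. It passed with library quality weights, with the epithelial mean as a covariate, and without both day 8 libraries numbered 1. It also passed without GSK day 8 library 1 or DMSO day 14 library 3. In these settings the limma adjusted p lay between 0.0230 and 0.0484. The day 14 difference passed without DMSO library 3 (0.53, adjusted p = 0.0304). Scap, the escort of both factors, had 8.48, 8.31 and 8.19 in GSK day 8 libraries against 8.69, 8.63 and 8.60 in DMSO day 8 libraries, without overlap. Its day 14 values were 8.37, 8.26, 8.31 and 7.98 with GSK and 8.42, 8.30, 8.29 and 8.51 with DMSO, with overlap, and the mean difference of -0.23 (SE 0.09, adjusted p = 0.104) did not pass.

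Insig1 and Insig2 hold the SCAP complex back in the endoplasmic reticulum, and Insig1 is itself a target of the SREBPs. Insig1 had 6.10, 5.76 and 5.93 in GSK against 6.51, 5.87 and 5.92 in DMSO libraries on day 8, and 6.19, 5.73, 6.10 and 6.30 in GSK against 6.10, 6.19, 6.29 and 5.94 in DMSO libraries on day 14. Insig2 had 7.15, 6.94 and 6.80 in GSK against 6.41, 7.10 and 6.67 in DMSO libraries on day 8, and on day 14 it had 7.13, 6.91, 6.90 and 6.72 in GSK against 7.26, 7.03, 6.74 and 7.16 in DMSO libraries. For both genes the groups overlapped on each day, and the mean differences were -0.11 (95% interval -0.39 to 0.17) and 0.05 (-0.22 to 0.32). Stard4, a carrier of cholesterol between membranes, had a mean difference of -0.01 (-0.29 to 0.28).

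In the mevalonate steps, Ggps1 (ENSMUSG00000021302, chr13:14050659-14063488) makes the geranylgeranyl diphosphate that anchors small GTPases to membranes. It had log2 values of 6.52, 6.83 and 6.77 in GSK day 8 libraries, against 7.45, 7.31 and 7.25 in DMSO day 8 libraries. The day 14 values were 6.60, 6.80, 6.98 and 6.98 with GSK, against 6.82, 7.47, 7.07 and 7.17 with DMSO. All 3 GSK libraries of day 8 lay below all 3 DMSO libraries, while on day 14 DMSO library 1 fell among the GSK libraries. The mean difference was -0.46 (SE 0.12, 1.38-fold lower, adjusted p = 0.0169). It stayed past the threshold when any 1 library was left out, and missed it when that ribosomal RNA split entered the model (-0.42, adjusted p = 0.0698) and in the libraries with AY036118 higher (-0.31, adjusted p = 0.141). Of the 31-base words of its transcripts, 14.9% also occur in other genes, so its values are uncertain as far as reads are divided with copies.

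Hmgcs1, the synthase that makes HMG-CoA and a classic target of SREBP-2, had differences of the opposite sign that did not pass. It had 8.16, 8.05 and 7.64 in GSK day 8 libraries, against 6.30, 7.77 and 7.05 in DMSO day 8 libraries, and 7.93, 7.83, 7.73 and 7.79 in GSK against 7.75, 7.56, 7.79 and 7.68 in DMSO libraries on day 14. DMSO libraries 1 and 3 of day 8 were the lowest of all 14, and the groups overlapped on both days. The day 8 difference was 0.91 (SE 0.26, adjusted p = 0.114) and the mean difference 0.52 (SE 0.17, adjusted p = 0.0540). Without DMSO day 8 library 2 the day 8 difference was 1.27 (adjusted p = 0.0269). With library quality weights it was 0.80 (adjusted p = 0.0482), so the day 8 call depends on 1 library and on the weighting. The mean difference passed with those weights (0.47, adjusted p = 0.0153) and without DMSO day 8 library 2 (0.70, adjusted p = 0.00516). With a minimum of 50 it passed as well (0.52, adjusted p = 0.0446), so that call also depends on the minimum level. Hmgcs1 has 13.1% of its words in common with other genes.

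Mvd, which decarboxylates mevalonate diphosphate to isopentenyl diphosphate, showed a day 14 difference of -0.62 (SE 0.20, adjusted p = 0.0618). Its values were 7.96, 7.99, 8.20 and 7.46 in GSK and 9.03, 8.40, 8.39 and 8.27 in DMSO libraries, without overlap, and in the libraries with AY036118 higher the difference was -0.80 (adjusted p = 0.0472). The kinases Mvk and Pmvk, which phosphorylate mevalonate in turn, had mean differences of 0.31 (SE 0.15, adjusted p = 0.167) and 0.21 (SE 0.15, adjusted p = 0.396). Acat2, the cytosolic thiolase that starts the pathway, gave 0.45 on day 8 and -0.42 on day 14, and the difference between these, -0.87 (SE 0.34), had an unadjusted p of 0.0195 and an adjusted p of 0.538. Acat2 shares 43.7% of its words, chiefly with Acat3, and its values are uncertain for that reason. Fdps, the farnesyl diphosphate synthase, and Idi1, the isomerase before it, had mean differences of -0.08 and 0.05, and they share 27.9% and 27.1% of their words. Over all 8 mevalonate genes 1 was lower and 7 did not pass in the mean over days, with a median log2 change of 0.03, equal to that of all genes at this precision.

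The steps from squalene to cholesterol held a called pair. Cyp51 (ENSMUSG00000001467, chr5:4081145-4104746) removes the 14α-methyl group of lanosterol, and Msmo1 (ENSMUSG00000031604, chr8:64718139-64733792) oxidises the methyl groups at position 4. Cyp51 had 9.31, 8.88, 9.15 and 8.64 in the GSK libraries of day 14, against 9.53, 9.83, 9.29 and 9.66 in the DMSO libraries. Only GSK library 1 and DMSO library 3 broke the separation of the groups. The day 14 difference was -0.58 (SE 0.16, 1.50-fold lower, adjusted p = 0.0345). On day 8 the values were 9.50, 9.41 and 9.04 with GSK and 9.72, 9.51 and 9.63 with DMSO, all GSK libraries being lower, with a difference of -0.30 (SE 0.19, adjusted p = 0.442). The mean over days was -0.44 (SE 0.12, adjusted p = 0.0281).

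Msmo1 on day 14 had 8.82, 8.43, 8.45 and 8.27 with GSK, against 9.14, 9.04, 9.06 and 8.97 with DMSO. All 4 GSK libraries were below all 4 DMSO libraries, and the difference was -0.56 (SE 0.14, 1.47-fold lower, adjusted p = 0.0260). Its day 8 values overlapped, at 9.14, 8.82 and 8.66 with GSK and 8.90, 9.18 and 9.31 with DMSO (difference -0.26, SE 0.17, adjusted p = 0.469), and the mean over days was -0.41 (SE 0.11, adjusted p = 0.0240). Within the libraries with AY036118 higher, the day 14 difference of Msmo1 was -0.61 (adjusted p = 0.0424) and that of Cyp51 was -0.41 (adjusted p = 0.184). When the split entered the model as a term neither passed on day 14, at -0.53 for Msmo1 (adjusted p = 0.0771) and -0.45 for Cyp51 (adjusted p = 0.130). Nor did their means over days, at -0.39 (adjusted p = 0.0790) and -0.33 (adjusted p = 0.134).

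The day 14 calls of this pair are near the threshold. For Cyp51 leaving out DMSO library 1, 2 or 4 or GSK library 2, 3 or 4 ended the call, with differences between -0.64 and -0.46 and adjusted p between 0.0514 and 0.140, and for Msmo1 leaving out DMSO library 1 or 2 or GSK library 2, 3 or 4 did so, with differences between -0.56 and -0.49 and adjusted p between 0.0534 and 0.109. The mean over days of Cyp51 missed the threshold without DMSO day 8 library 1, GSK day 8 library 3, DMSO day 14 library 2 or 4 or GSK day 14 library 2 or 4, with differences between -0.43 and -0.37 and adjusted p up to 0.0905. That of Msmo1 missed it without DMSO day 8 library 3, GSK day 8 library 2 or 3 or GSK day 14 library 4, with differences between -0.40 and -0.36 and adjusted p up to 0.0781.

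**Figure D3:**
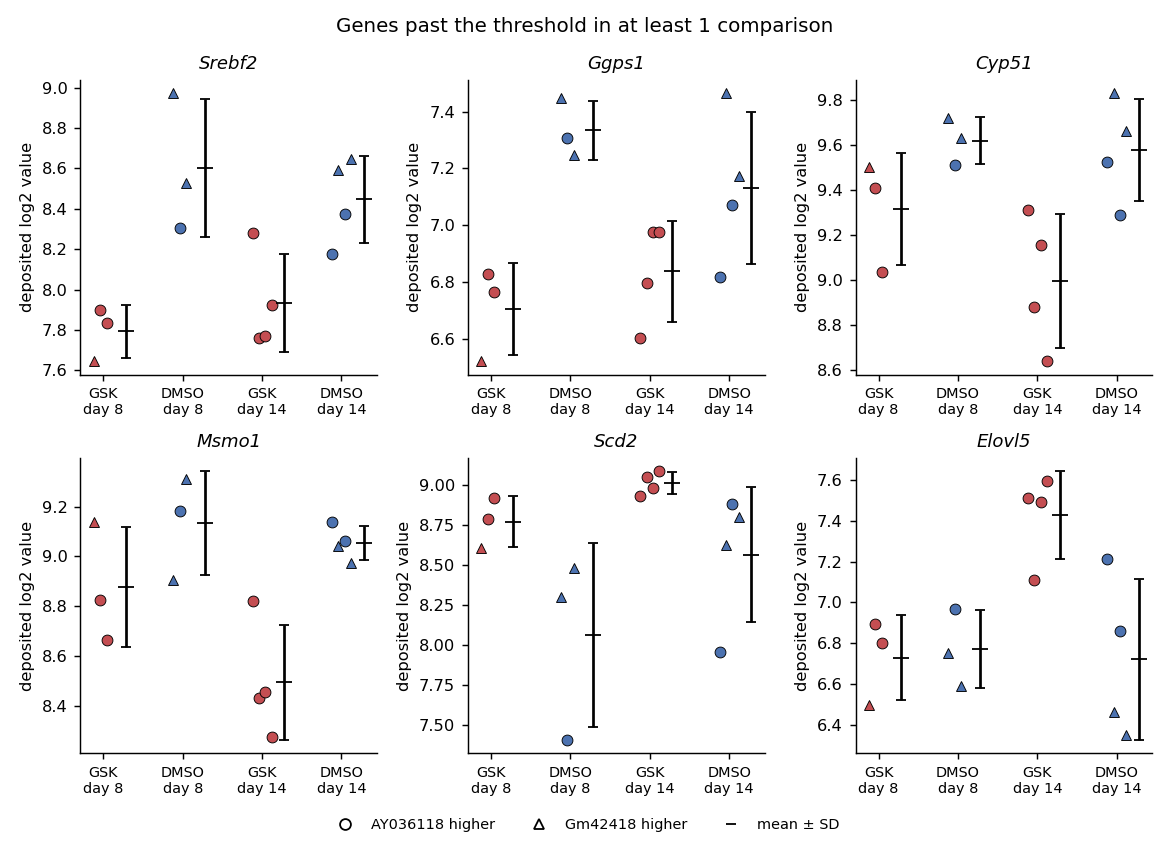
Deposited log2 value (y axis) of each member that passed a GSK against DMSO test, by group (x axis), with 1 point per library, shaped by which ribosomal RNA gene is higher, and bars for the mean ± SD. Srebf2, Ggps1, Cyp51 and Msmo1 have lower GSK means on both days, Scd2 has higher GSK means on both days, and Elovl5 has a higher GSK mean on day 14 only.

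No other enzyme of this stretch passed a GSK against DMSO test in the main fit. Ebp, the sterol isomerase, had 10.91, 10.65, 10.79 and 10.49 in GSK and 11.34, 10.97, 10.76 and 11.06 in DMSO libraries of day 14, with overlap, and its mean difference over days was -0.32 (SE 0.11, adjusted p = 0.0544). That of Ebp passed with TMM scaling, a minimum of 50 or library quality weights. It also passed without DMSO day 8 library 3, GSK day 8 library 1 or DMSO day 14 library 3. In these settings the limma adjusted p lay between 0.0266 and 0.0492. Sqle, squalene epoxidase and a rate-limiting step, had 5.05, 5.10 and 5.40 in GSK against 5.10, 5.41 and 5.40 in DMSO libraries of day 8, and on day 14 it had 5.25, 4.92, 5.57 and 5.18 in GSK against 5.29, 4.96, 5.39 and 5.09 in DMSO libraries. The groups overlapped on both days, with a mean difference of -0.03 (95% interval -0.29 to 0.23). Nsdhl, the partner of Msmo1 in removing the methyl groups, ranged from 3.22 to 3.92 over all libraries, near the minimum, and had a mean difference of 0.21 (SE 0.08, adjusted p = 0.0868). Fdft1, Tm7sf2, Hsd17b7, Sc5d and Dhcr7, which are squalene synthase, a sterol Δ14 reductase, a 3-ketosteroid reductase, the Δ5 desaturase and the Δ7 reductase, gave mean differences between -0.17 and 0.19, none past the threshold. Fdft1 shares 31.9% of its words with other genes, chiefly Ctsb, and Tm7sf2 shares 13.3%.

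Over the 10 kept genes of this stretch the day 14 test called 0 higher and 2 lower, where 5.10% and 5.73% of all genes were. In either direction 10.8% of all genes were called. The median was -0.07 against 0.02 over all genes. Over all 32 members the same test called 1 higher and 2 lower, so the pair does not set this stretch apart.

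Of the 3 genes of fatty acid synthesis 0 passed in any comparison in limma, and Acly alone had an unadjusted p under 0.05 on day 14. Acly passed in the mean over days when both day 8 libraries numbered 1 were left out. Fasn, the synthase that builds palmitate, had 8.07, 7.84 and 7.25 in GSK and 7.17, 7.96 and 7.41 in DMSO libraries of day 8, and 7.72, 7.29, 7.27 and 7.38 in GSK and 7.88, 7.31, 7.44 and 7.42 in DMSO libraries of day 14. The groups overlapped on both days, and the mean difference was 0.05 (95% interval -0.28 to 0.38). Acly, which makes cytosolic acetyl-CoA from citrate, had 9.86, 9.88, 9.98 and 9.82 in GSK against 10.24, 10.24, 10.07 and 10.08 in DMSO libraries of day 14, without overlap, a difference of -0.27 (SE 0.13, adjusted p = 0.180). Acaca, which makes malonyl-CoA, differed by -0.17 on day 14 (SE 0.15, adjusted p = 0.525), and it shares 33.5% of its words with other genes. GSK library 1 of day 8 had the highest value of all 14 libraries for Acly, Acaca and Fasn.

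In elongation and desaturation, Elovl5 (ENSMUSG00000032349, chr9:77917364-77984519) lengthens polyunsaturated fatty acids of arachidonic and related series. It had 7.51, 7.11, 7.49 and 7.59 in GSK day 14 libraries, against 7.21, 6.46, 6.86 and 6.36 in DMSO day 14 libraries. DMSO library 1 lay above GSK library 2, and the other libraries were separated. The difference was 0.70 (SE 0.19, 1.63-fold higher, adjusted p = 0.0286). On day 8 the values were 6.50, 6.89 and 6.80 with GSK and 6.76, 6.97 and 6.59 with DMSO, with full overlap and a difference of -0.04 (SE 0.22). The lowest DMSO libraries of day 14, numbers 2 and 4, are those with Gm42418 higher. With the split as a term the day 14 difference was 0.47 (adjusted p = 0.102), and in the libraries with AY036118 higher it was 0.39 (adjusted p = 0.162). It also lost the call without DMSO library 2 or 4 or GSK library 1, 3 or 4, with differences between 0.58 and 0.68 and adjusted p between 0.0651 and 0.110.

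The stearoyl-CoA desaturases put the double bond into saturated fatty acids. Scd2 (ENSMUSG00000025203, chr19:44293674-44306864) had 8.61, 8.79 and 8.92 in GSK day 8 libraries, against 8.30, 7.41 and 8.48 in DMSO day 8 libraries. On day 14 it had 8.93, 9.06, 8.98 and 9.09 with GSK, against 7.95, 8.62, 8.88 and 8.80 with DMSO. The GSK libraries lay above the DMSO libraries on each day without overlap, with DMSO library 3 of day 14 closest to the GSK libraries. The mean difference was 0.58 (SE 0.17, 1.49-fold higher, adjusted p = 0.0320), with 0.71 (SE 0.25, adjusted p = 0.185) on day 8 and 0.45 (SE 0.22, adjusted p = 0.198) on day 14. Leaving out DMSO day 8 library 2, the lowest of all, gave 0.42 (adjusted p = 0.0575). The call was also lost without GSK day 8 library 2 or 3, DMSO day 14 library 2 or GSK day 14 library 2, 3 or 4, with adjusted p up to 0.0846, while within the libraries with AY036118 higher the difference was 1.02 (adjusted p = 0.00802).

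Scd1 was near the minimum, at 4.59, 3.86 and 3.48 in GSK and 3.57, 3.49 and 3.95 in DMSO libraries of day 8 and at 3.22, 3.41, 3.52 and 3.38 in GSK and 3.17, 3.58, 3.56 and 3.38 in DMSO libraries of day 14. The groups overlapped, and the mean difference was 0.13 (95% interval -0.17 to 0.44). Scd1 and Scd2 share 8.18% and 6.81% of their words, both chiefly with Scd3. Elovl6, which lengthens palmitate, was lower in every GSK than in every DMSO library of day 14 a difference of -0.21 (SE 0.12, adjusted p = 0.279). Fads1, the Δ5 fatty acid desaturase, had a mean difference of -0.02 (95% interval -0.22 to 0.19).

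Counting only whether the libraries overlapped, 8 of 32 members were separated on day 8 against 16.2% of all genes, and 6 of 32 on day 14 against 22.0%. The 8 were Mvk, Nsdhl and Scd2 with GSK higher and Ggps1, Cyp51, Ebp, Srebf2 and Scap with GSK lower. The 6 were Scd2 with GSK higher and Mvd, Msmo1, Acly, Acaca and Elovl6 with GSK lower. Scd2 was thus the one member separated on both days.

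Few members passed the test between day 8 and day 14. In DMSO fractions 0 of 32 members passed (0.824% of all genes, limma), 3 had an unadjusted p under 0.05 against 15.4% of all genes, and 3 were separated without overlap against 10.1%. In GSK fractions Elovl5 was higher on day 14 than on day 8, by 0.69 (SE 0.20, 1.62-fold, adjusted p = 0.0481), and all 4 day 14 libraries lay above all 3 day 8 libraries. It was the 1 member called of 32 (3.12%), against 7.01% of all genes in either direction and 3.05% higher, and 6 members were separated without overlap against 30.3% of all genes. Leaving out any of the 7 GSK libraries ended it, with differences between 0.58 and 0.80 and adjusted p between 0.0517 and 0.256. Both time comparisons use the libraries of the GSK against DMSO comparisons above and are not independent of them.

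**Figure D4:**
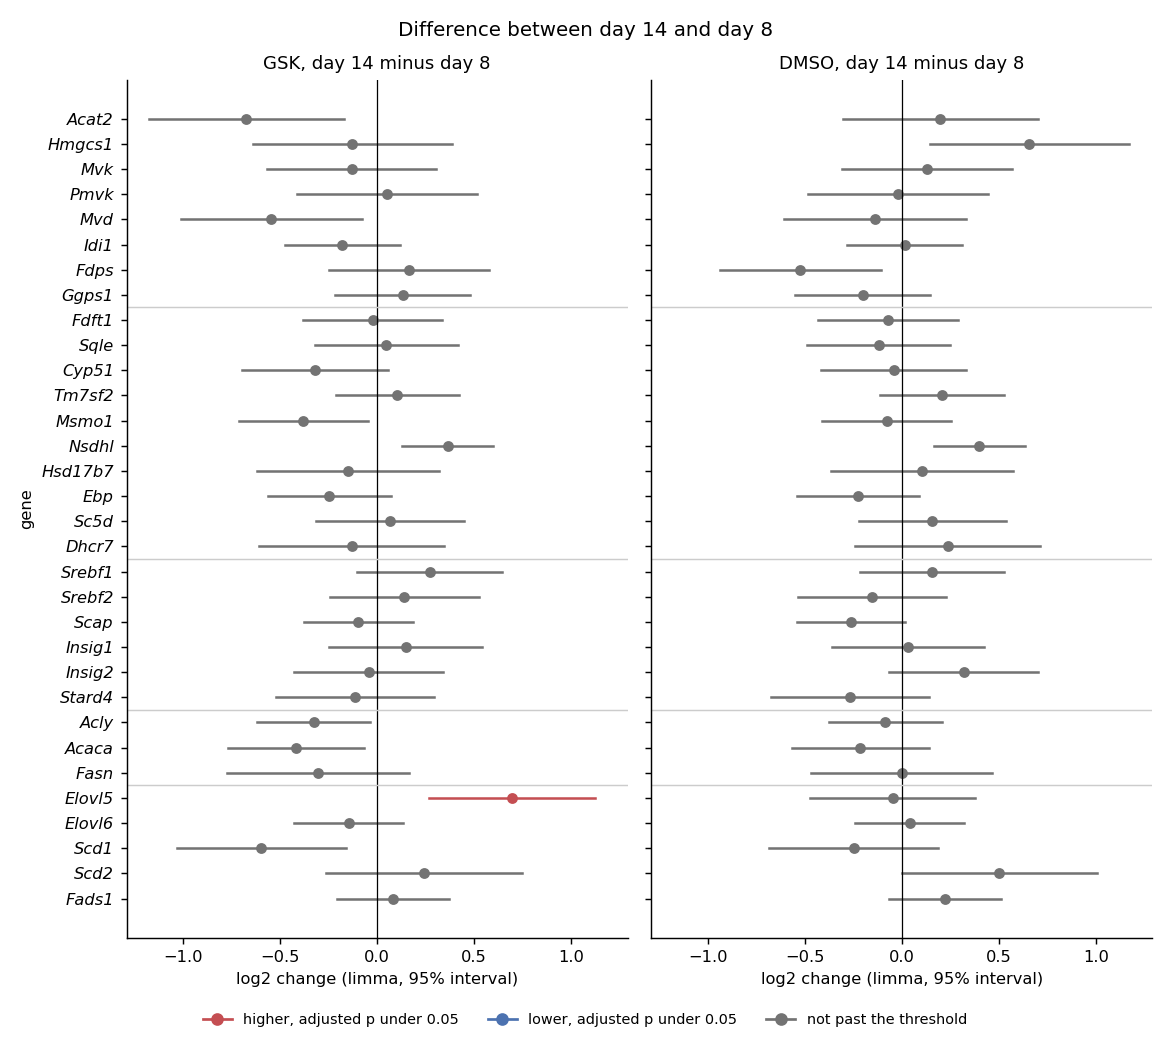
Log2 change of each kept member between day 14 and day 8 (day 14 minus day 8), in GSK fractions (left) and DMSO fractions (right), with 95% intervals of the limma fit as bars and colour where the adjusted p was under 0.05. Elovl5 in GSK fractions is the one coloured point, at 0.69.

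Of the members that did not pass, Nsdhl had positive day 14 minus day 8 differences in both pre-treatments, 0.36 (SE 0.11, adjusted p = 0.0571) in GSK and 0.40 (SE 0.11, adjusted p = 0.0991) in DMSO fractions, with no overlap in either. In GSK fractions Acaca, Acly, Mvd, Acat2 and Scd1 had day 14 minus day 8 differences of -0.42, -0.33, -0.54, -0.67 and -0.60, with adjusted p between 0.0847 and 0.152. Over the same days the 4T1 epithelial markers fell in GSK fractions, with 7 of 9 lower against 3.95% of all genes. Their median was -1.70 against 0.01 over all genes, and their part in these differences was not tested. With the mean of these markers as a covariate the Elovl5 difference over time was 0.14 (adjusted p = 0.9998). In GSK libraries that mean was 5.88 to 7.33 on day 8 and 4.96 to 5.12 on day 14, without overlap. This fit therefore cannot separate the markers from the day.

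Next to the members, 24 of 32 further genes of sterol and fatty acid metabolism were kept. On day 14 the test called 0 of these 24 higher and 2 lower, where 5.10% and 5.73% of all genes were. The mean over days called 3 higher and 2 lower, where 6.73% and 7.77% of all genes were. The genes named next are thus not a result about this list. Tmem97, the sigma-2 receptor and an SREBP-2 target, had 7.96, 7.90, 7.86 and 7.40 in GSK against 8.46, 8.59, 8.06 and 8.38 in DMSO libraries of day 14. All 4 GSK libraries were below all 4 DMSO libraries, a difference of -0.60 (SE 0.17, adjusted p = 0.0362). In the mean over days it was lower by the same test, at -0.42 (SE 0.13, adjusted p = 0.0387). Hsd17b12, a reductase of fatty acid elongation (0.57, SE 0.15, adjusted p = 0.0203), and Acsl5, a long-chain acyl-CoA synthetase (0.40, SE 0.12, adjusted p = 0.0331), were higher in the mean over days.

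Among 8 liver X receptor genes on day 14, the exporter Abca1 (0.54, SE 0.14, adjusted p = 0.0260) and the phospholipid transfer protein Pltp (1.18, SE 0.19, adjusted p = 0.00408) were higher in GSK fractions, and the receptor gene Nr1h3 was lower (-0.62, SE 0.19, adjusted p = 0.0441). These 3 of 8 calls stand beside 10.8% of all genes. Abca1 had 10.58, 10.73, 10.53 and 11.07 in GSK against 10.04, 10.12, 10.34 and 10.24 in DMSO libraries of day 14, without overlap. Mylip, a liver X receptor target that encodes a ubiquitin ligase, was lower over both days (-0.73, SE 0.14, adjusted p = 0.00386). Its values were 7.71, 7.51 and 7.44 in GSK against 8.74, 8.22 and 8.58 in DMSO libraries of day 8, without overlap. On day 14 it had 7.66, 7.39, 7.49 and 7.57 in GSK against 7.99, 8.42, 7.49 and 8.26 in DMSO libraries, which overlap, a difference of -0.51 (SE 0.18, adjusted p = 0.0761). Abcg1, a further exporter, differed by 0.55 on day 14 (SE 0.19, adjusted p = 0.0701).

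**Figure D5:**
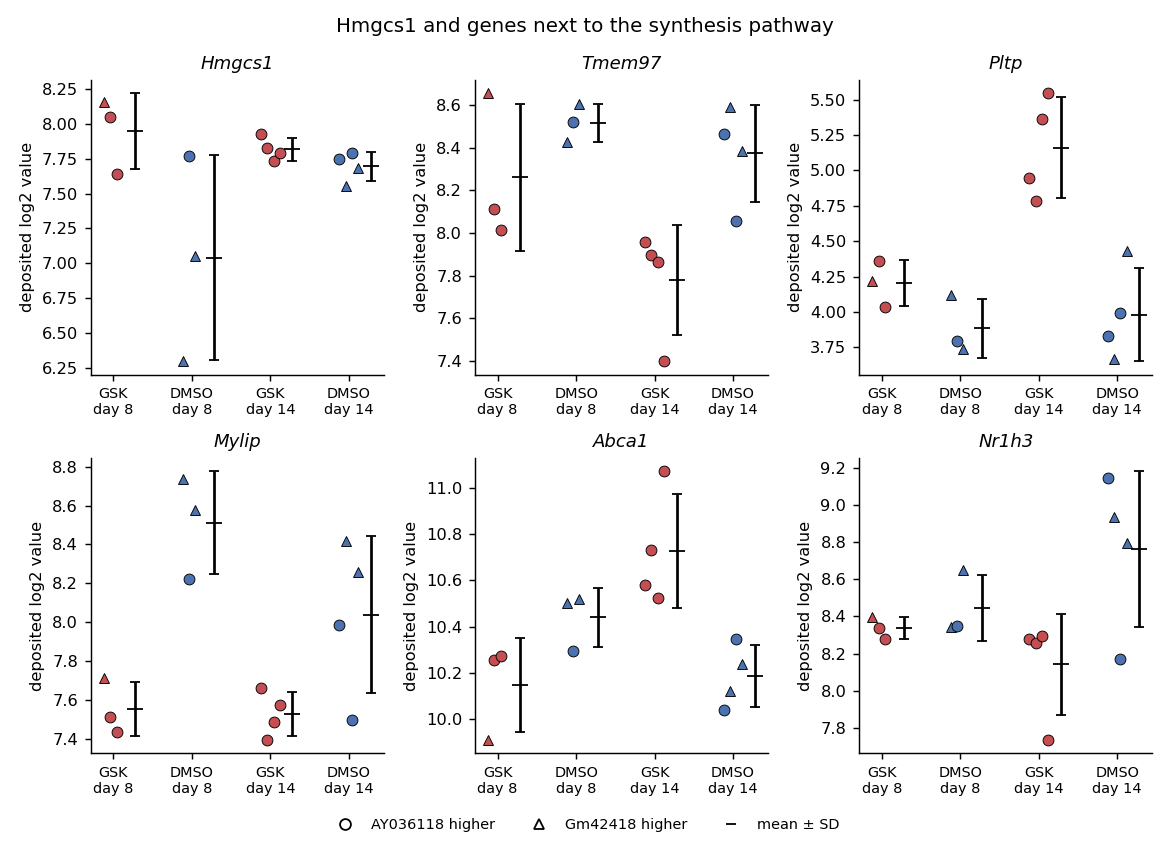
Deposited log2 value (y axis) of Hmgcs1 and of 5 genes beside the synthesis pathway, by group (x axis), with 1 point per library, shaped by which ribosomal RNA gene is higher, and bars for the mean ± SD. All 4 GSK day 14 libraries are below all DMSO day 14 libraries for Tmem97 and above them for Abca1 and Pltp, and all 3 GSK day 8 libraries are below all DMSO day 8 libraries for Mylip.

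On day 14 markers of macrophages moved in the same libraries. Of the 8 markers 3 were higher in GSK fractions, Adgre1, which encodes F4/80 (0.70, SE 0.21, adjusted p = 0.0413), Cd68 (1.04, SE 0.30, adjusted p = 0.0376) and Lyz2 (0.81, SE 0.22, adjusted p = 0.0285), and Itgam was lower (-0.59, SE 0.17, adjusted p = 0.0360). Of all genes 5.10% were higher and 5.73% lower on that day. The groups overlapped for Cd68 and Lyz2. The summed unlogged marker level ranged from 21715 to 31166 in GSK and from 15544 to 25190 in DMSO libraries of day 14. The summed epithelial level ranged from 1190 to 1673 in GSK and from 1258 to 2022 in DMSO libraries. On day 8 the epithelial sum was 1781 to 3850 with GSK and 2305 to 2920 with DMSO, and Krt14 was higher in GSK by 1.37 (SE 0.25, adjusted p = 0.0361). The part of the macrophage markers in the day 14 differences of Elovl5, Cyp51 and Msmo1 was not tested. With the epithelial mean as a covariate these differences were 0.60 (adjusted p = 0.0782), -0.50 (adjusted p = 0.0920) and -0.48 (adjusted p = 0.0716). The epithelial mean did not overlap between the GSK and DMSO libraries of day 14, so this fit cannot separate the epithelial markers from the pre-treatment. Lpl and Fabp4, the only 2 of 8 fat pad markers kept, had positive day 14 differences with overlapping groups. These were 0.81 (SE 0.24, adjusted p = 0.0408) and 0.78 (SE 0.38, adjusted p = 0.197). As most of that list was not kept, these 2 genes do not show that fat pad cells were present. Of 4 endothelial markers Pecam1 was lower in the mean over days (-0.42, SE 0.12, adjusted p = 0.0308), where 7.77% of all genes were lower. The other 3 had positive differences that did not pass, and the median of the list was 0.09. The part of these markers in the members' differences was not tested. Of 8 cell cycle genes 0 passed in any GSK against DMSO comparison in limma, with 2 at an unadjusted p under 0.05 on day 14 against 27.3% of all genes.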

How the data were processed

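RNA of 14 tumour macrophage fractions was sequenced. The deposited table holds log2 values per gene, made by the authors; Bowtie2, RSEM 1.2.29, DESeq2 1.12.4 and the builds mm10 and GRCh38 are named, without roles, per the submitters' processing notes, and how the log2 values were made is not given in the sources used here. Gene names from GENCODE M21 (GRCm38) matched 24470 of 24556 identifiers. The 4 group means were fitted with limma 3.58.1 (R 4.3.3) to the log2 values of the 11886 kept genes in all 14 libraries, with a mean-variance trend and 10 residual degrees of freedom. Tests are two-sided, with Benjamini-Hochberg adjustment over all kept genes and a threshold of 0.05, and intervals cover 95%. All adjusted p-values are from limma. The fit was tested on simulated data. Depth is unknown. Members and gene lists were chosen with earlier results of these data known. The text names all members by role, with values in every library for those past a test and for the SREBP genes, Hmgcs1, Sqle, Fasn, Scd1 and Scd2; of other lists it names some of the called genes, and always Nr1h3, Abca1, Abcg1 and Mylip. The rule was to name up to 6 called genes of a list in each comparison by smallest adjusted p, but some genes it selects are not reported here. Alternatives were the minimum level, the pseudocount, TMM or quantile scaling, library quality weights, no trend, a replicate block, only the groups compared, each library left out, the ribosomal RNA split, the epithelial mean as a covariate and, chosen after seeing the data, both first day 8 libraries left out. Tables and figures used Python 3.11.15, pandas 2.3.3 and matplotlib 3.10.9.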

Additional observations from a re-analysis of the deposited data

Results flagged for a closer look

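The day 8 groups of 3 libraries were too small to be examined for a library far from the rest, and in the day 14 groups none of the 32 members had one. Among the 64 genes of the member and neighbouring lists, taken over the 2 groups of 4 libraries, 4 of 128 sets held a library whose gap to the others was too large a part of the range by Dixon's 95% critical value, where chance gives about 1 in 20. All 4 were in GSK day 14. Tmem97 had 7.40 in library 4, with the others at 7.86 to 7.96. Nr1h3 had 7.74 in library 4, with the others at 8.26 to 8.30. Acsl5 had 8.64 in library 4, with the others at 8.56 to 8.57, and Acsl4 had 9.25 in library 3, with the others at 9.50 to 9.53.

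Abca1 differed in direction between the days. The difference between GSK and DMSO was -0.29 on day 8, with every GSK library below every DMSO library, and 0.54 on day 14, with every GSK library above. The test of the difference between the days gave 0.84 (SE 0.22, adjusted p = 0.504), which did not pass.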

How the results depend on the processing

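No called member changed direction under any alternative run. The number of members called moved as follows. For the day 14 comparison, with 3, it was 0 without a filter, 5 with only the groups compared, 0 with the ribosomal RNA split as a model term, 0 with the epithelial covariate, and 0 to 4 with 1 library left out. For the mean over days, with 5, it was 2 without a filter, 10 with library quality weights, 2 with the split in the model, 3 in libraries with AY036118 higher, 8 without both first day 8 libraries, and 2 to 8 with 1 library left out. For day 8, with 0, it was 1 with quality weights (Hmgcs1) and 0 to 2 with 1 library left out. For the GSK time comparison, with 1, it was 6 with quality weights, 2 with only the groups compared, 0 without a filter, with the split in the model, in libraries with AY036118 higher, with the epithelial covariate or without both first day 8 libraries, and 0 to 2 with 1 library left out. For the DMSO time comparison, with 0, it was 0 to 1 with 1 library left out, the 1 being Hmgcs1 without DMSO day 8 library 2 (1.02, adjusted p = 0.0216). The cause of these moves was not tested, and counts over all genes are given below for only some of these settings. The number of all genes called moved as well, so these moves are not results about the members.

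Same-numbered libraries correlated by -0.344 to 0.171 in their deviations from the group means. GSK day 14 library 2 correlated best with library 2 of DMSO day 14 (0.171) and with library 2 of GSK day 8 (0.108). No other library was best matched by its own number. In groups of 3 or 4 libraries such correlations cannot exclude a pairing. With the replicate block the members called were 1 on day 14, 3 in the mean over days and 0 in the GSK time comparison.

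Over all genes the calls were 23 on day 8, 1287 on day 14, 1724 in the mean, 98 in the DMSO and 833 in the GSK time comparison. In the same order they were 0, 540, 951, 30 and 257 without a filter, 317, 2373, 2820, 19 and 3523 with quality weights, 14, 746, 1252, 65 and 301 with the replicate block, 8, 362, 629, 115 and 471 with the split in the model, 76, 860, 1463, 26 and 290 in libraries with AY036118 higher, and 0, 508, 2094, 3 and 1 with the epithelial covariate. With only the groups compared day 8 gave 2, day 14 gave 1882 and the DMSO and GSK time comparisons gave 22 and 1517. The test of the difference between days called 1 gene, and 12 in libraries with AY036118 higher. With a minimum of 50 day 8 gave 37, and without both first day 8 libraries it gave 45 and the GSK time comparison 174. Depth is unknown, so no limit from counting can be set.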
